A study of Mus musculus with 4 samples.

Results

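CA3 and CA2 pyramidal neurons were studied in single-nuclei RNA profiles of the mouse hippocampus. A nucleus was taken as a member of this class, named CA2/3 here, by its own transcript counts. It had at most 20% mitochondrial UMIs (unique molecular identifiers, each 1 counted RNA molecule) and at least 500 UMIs. It held at most 1 UMI of *Gad1* and *Gad2*, the enzymes of GABA synthesis, and at least 1 UMI of the neuronal gene *Syt1*. It held at least 3 UMIs, and at least 5 per 10000, of 7 marker genes together, which were *Mndal*, *Ifi203*, *Col11a1*, *Nectin3*, *Homer3*, *Ccbe1* and *Ccdc3*. These also had to outnumber the UMIs of *Fibcd1*, *Gm2115*, *Gm10754*, *Glis3* and *Dsp*, which mark CA1 and dentate gyrus neurons. Of 57350 nuclei in all, 48821 passed the limits on mitochondrial UMIs and depth, and 4785 of these (9.80%) were CA2/3 members.

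The nuclei came from 24 male mice in 8 pools of 3 mice each, and each pool was 1 of the study's 8 groups. Stress was repeated social defeat (RSD), in which a CD-1 aggressor was placed with the mice for 2 h on each of 6 nights. Hippocampi were collected 14 h after the last defeat, and control mice were left undisturbed. In the diet experiment, C57BL/6 mice (5 to 7 weeks old) were on vehicle chow (Control-Vehicle, or Stress-Vehicle with RSD) or on chow with PLX5622 (Control-PLX5622, or Stress-PLX5622 with RSD), an inhibitor of the CSF1 receptor that depletes microglia, from 7 days before RSD. In the genotype experiment, nIL-1R1-/- mice carried Cre driven by *Vglut2* (*Slc17a6*), which deletes the interleukin-1 receptor *Il1r1* in glutamatergic neurons (Con-nIL-1R1-/-, or Stress-nIL-1R1-/- with RSD). Cre-negative mice of the line, in which *Il1r1* is intact, were Con-IL-1R1+/+ and, with RSD, Stress-IL-1R1+/+. The ages of these mice are not given in the sources used here. Stress and control pools therefore formed 4 pairs (vehicle, PLX5622, IL-1R1+/+ and nIL-1R1-/-), and these pairs were the only replication of RSD. By the study's methods, Cre-negative and Cre-positive mice shared housing during RSD, so the stress pools of the genotype line may not be separate exposures. Diet and genotype were each represented by 1 control and 1 stress pool.

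In the hippocampal circuit, granule neurons of the dentate gyrus (DG) send mossy fibres to CA3 pyramidal neurons. CA3 neurons excite each other through recurrent collaterals and drive CA1 through the Schaffer collaterals. CA2 is the small field between CA3 and CA1, known for its vasopressin 1b receptor and its part in social memory. Pyramidal neurons of all fields carry corticosteroid receptors. IL-1R1 is the receptor through which interleukin-1 signals, and in the mouse hippocampus it is known mainly from granule neurons.

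The pools differed in depth before any gene was compared. CA2/3 members numbered 922, 206, 771 and 940 in the control pools, in the order vehicle, PLX5622, IL-1R1+/+ and nIL-1R1-/-, which is kept for all values below. They numbered 465, 215, 729 and 537 in the stress pools. Median UMIs per member were 5597, 2599.5, 6127 and 8636.5 in the control pools and 3108, 1900.0, 5587 and 4779 in the stress pools. In every pair the stress pool was the shallower. No member shared its barcode and sublibrary with a member of another pool (0 nuclei). Summed over members, a pool held between 533177 UMIs in Stress-PLX5622 and 12014376 UMIs in Con-nIL-1R1-/-, so the PLX5622 pools carried the least precise values.

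CA2/3 members made up 11.5% of the nuclei kept in Control-Vehicle (95% exact binomial interval 10.8 to 12.2%), 4.68% in Control-PLX5622 (4.07 to 5.34%), 10.5% in Con-IL-1R1+/+ (9.83 to 11.2%) and 14.4% in Con-nIL-1R1-/- (13.6 to 15.3%). In the stress pools the shares were 7.62% (6.97 to 8.31%), 4.41% (3.85 to 5.03%), 12.6% (11.8 to 13.5%) and 9.23% (8.50 to 10.0%). These intervals cover counting error only. The share was thus lower after RSD in 3 pairs and higher in the IL-1R1+/+ pair. Stress minus control was -3.88, -0.266, 2.11 and -5.20 percentage points (mean -1.81 ± 3.34 SD, n = 4 pairs), with a 2-sided exact sign-flip permutation p of 0.375, where 4 pairs cannot go below 0.125. Within each of the 4 sublibraries (aliquots of all 8 pools that were made into separate libraries), the mean of the 4 pairs was -1.62, -2.51, -2.25 and -1.13 points. Sublibraries 2 and 3 had lower shares than 1 and 4 in 7 of the 8 pools, all but Con-nIL-1R1-/-. The shallowest pools had the lowest shares and the deepest pool the highest. With every nucleus thinned to 1000 UMIs the shares were 2.36, 2.32, 2.27 and 4.44% in the control pools and 2.08, 2.38, 3.50 and 2.75% in the stress pools, of 7026, 2113, 6517, 6198, 4525, 2230, 5224 and 5164 nuclei deep enough. The PLX5622 pools then no longer stood apart from the vehicle pools, and the mean difference with RSD was -0.171 points (exact permutation p = 0.75).

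**Figure D1:**
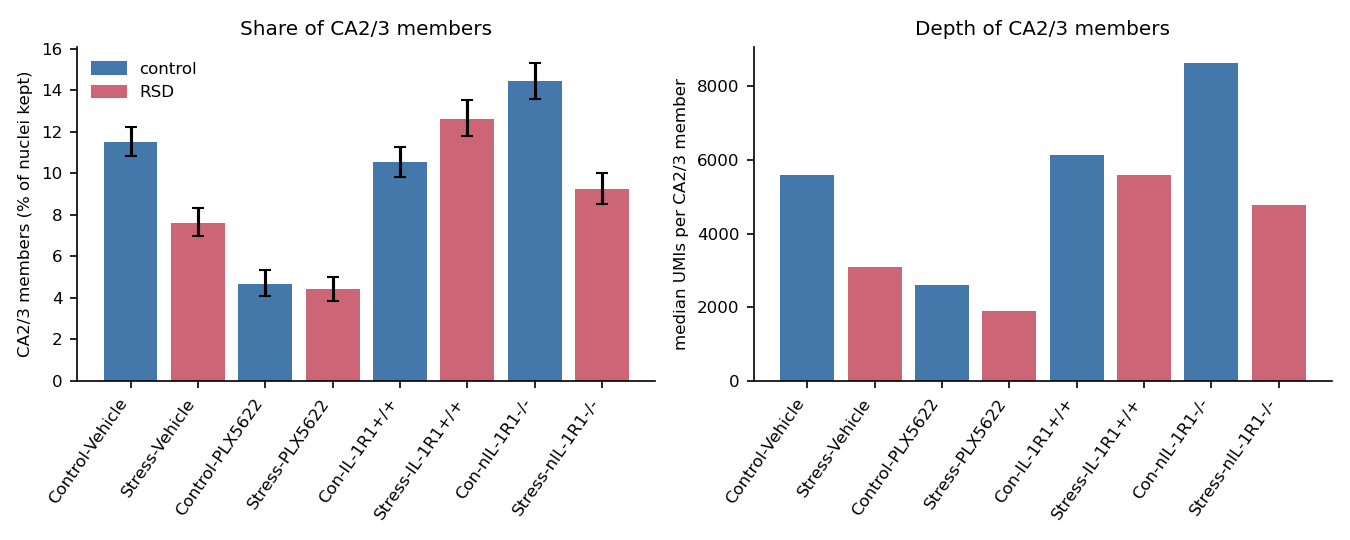
Share of CA2/3 members among nuclei kept (%, left, bars with 95% exact binomial intervals) and median UMIs per member (right), for the 8 pools, control in blue and RSD in red. The PLX5622 pools had the lowest shares (4.68 and 4.41%) and Con-nIL-1R1-/- the highest share (14.4%) and depth (8636.5 UMIs).

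The 7 markers did not weigh equally in the choice. *Ccbe1*, a secreted protein with collagen and EGF-like domains, gave 49.2% of the marker UMIs and was found in 88.9% of members, and 493 members (10.3%) were chosen on it alone. *Col11a1*, a fibrillar collagen chain, gave 23.4% of the marker UMIs and *Nectin3*, an adhesion protein of the postsynaptic side of mossy fibre contacts, gave 13.0%. *Mndal* gave 5.13%, *Ccdc3* 4.37%, *Homer3*, a postsynaptic scaffold protein, 2.88%, and *Ifi203* 2.04%. At least 2 of the 7 genes were detected in 84.3% of members and all 7 in 48 members. Members with exactly 3 marker UMIs, the least the rule takes, numbered 892 (18.6%), and 1817 (38.0%) had 10 or more. Just outside the rule stood 1868 nuclei with 2 marker UMIs, 759 nuclei whose CA1 and DG markers were as many or more, and 353 nuclei below 5 per 10000. In the PLX5622 pools 45.1% and 45.1% of members had exactly 3 marker UMIs, against 7.98% in Con-nIL-1R1-/-.

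All levels below are in CPM, the UMIs of a gene per 1000000 UMIs summed over the members of a pool. The marker levels chose the members and are given without a test. *Col11a1* varied between pools, with 127, 146, 267 and 470.4 CPM in the control pools and 204, 362, 443 and 559 CPM in the stress pools. Among control pools and among stress pools it was higher in the genotype line than in the diet experiment, and it was higher after RSD in each pair. *Ccbe1* was steady, at 729, 894, 698 and 758 CPM in the control and 734, 808, 777 and 696 CPM in the stress pools. *Nectin3* ranged from 126 to 299.7 CPM.

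*Mndal* and *Ifi203* belong to the IFI200 family of interferon-inducible DNA-binding proteins. *Mndal* stood at 85.0, 57.1, 84.2 and 59.3 CPM in the control pools and 148, 251, 64.6 and 67.2 CPM in the stress pools. *Ifi203* stood at 31.3, 12.7, 35.3 and 27.6 CPM and 44.6, 82.5, 30.3 and 20.6 CPM. Both were highest in Stress-PLX5622 and next in Stress-Vehicle. Of the 13 family members in the count table, *Mndal* had 2936 UMIs in CA2/3 members, *Ifi203* 1169 and *Aim2* 179, and the rest had 0 to 8. The genes lie close together on chromosome 1 (*Mndal* chr1:173676539-173708447, minus strand; *Ifi203* chr1:173747971-173770436, minus strand; GRCm39). Their promoter windows in RefSeq (GRCm38.p6, 250 bases before to 50 after each start) hold an identical stretch of 139 bases, shown because both genes are rule markers of 1 family. Whether reads of one were counted for the other was not tested.

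Mndal, chr1:173880146-173880284, minus strand: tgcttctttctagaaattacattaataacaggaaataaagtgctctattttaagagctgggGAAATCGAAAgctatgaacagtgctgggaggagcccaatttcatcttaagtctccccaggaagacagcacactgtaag
Ifi203, chr1:173942450-173942588, minus strand: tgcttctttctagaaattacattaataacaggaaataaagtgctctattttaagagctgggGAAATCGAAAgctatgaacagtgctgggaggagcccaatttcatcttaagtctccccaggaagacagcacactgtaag

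Capitals mark GAAANNGAAA, the core of the interferon-stimulated response element, searched on both strands. It begins 36 bases before the *Mndal* start and 35 before that of *Ifi203*. The same letters occur in 1131 of 32851 promoter windows (3.44%), or in 1079 of 27025 genes with a window (3.99%). Of the 6 markers that have a window, 2 hold them, *Mndal* and *Ifi203*. A further window of *Mndal*, which does not take in the match shown, also holds them. A further window of *Ifi203* does not. The matches are a description of the windows only.

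The CA3 side of the label was set against CA1 and DG in a list of 6 CA3 genes that the rule did not use. The list summed to 1298 to 1847 CPM in CA2/3 members. In CA1 nuclei it summed to 245 to 663 CPM and in DG nuclei to 198 to 407 CPM. Most of the sum in members was 1 gene, *Spock1*, a secreted proteoglycan (53137 UMIs). It stood at 1235 to 1456 CPM in the control and 1086 to 1543 CPM in the stress pools. The list sum thus rests mainly on *Spock1*, and the other genes were not compared one by one. The list was less particular to the class than that, since it summed to 619.5 to 1195 CPM in nuclei with at least 50 oligodendrocyte marker UMIs per 10000, below the members in each pool. The CA1 markers (*Fibcd1*, *Gm2115*, *Mpped1* and *Wfs1*) summed to 98.2 to 141 CPM in members and 841 to 1289 CPM in CA1 nuclei. The DG markers (*Prox1*, *Glis3*, *Dsp*, *C1ql2* and *Plk5*) summed to 114 to 182 CPM in members and 1442 to 1860 CPM in DG nuclei. CA1 nuclei (3291) and DG nuclei (5460) were chosen by their own markers in the same way. *Fibcd1*, *Gm2115*, *Glis3* and *Dsp* take part in the rule. The sums of CA1 and DG markers were thus partly set by the choice and are a description only, with no bearing on the label. The CA2 side was weaker. A list of 10 CA2 genes summed to 102 to 179 CPM in members and 43.2 to 92.5 CPM in CA1 nuclei, but to 159 to 186 CPM in DG nuclei, where *Ntf3* led it. *Rgs14*, which limits plasticity in CA2 neurons, ranged from 8.94 to 24.4 CPM in members, and *Pcp4*, a calmodulin regulator, from 15.9 to 25.6 CPM. The class is therefore named by its rule and not split into CA2 and CA3.

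Some members also held genes that led other groups of nuclei. Lists of such genes were drawn up after the members had been examined, and 982 members (20.5%) held at least 3 UMIs and 5 per 10000 of 1 or more of them. The list with *Dlx6os1*, *Kcnmb2* and *Nxph1* was found in 292 members (6.10%), that with *Ndst4* and *Stac* in 275 (5.75%) and that with *Prox1* and *Dsp* in 195 (4.08%). A list led by *Ebf1*, *Ebf2*, *Zfhx3* and *Rmst* was found in 208 members (4.35%). Of these, 118 were in Con-IL-1R1+/+, where they made up 15.3% of members, against 0.971 to 2.77% in the other 7 pools. The list with *Rai14*, *Sulf1* and *Hs3st2* was found in 153 members (3.20%), and the share was 6.72% in Stress-IL-1R1+/+ members and 5.59% in those of Stress-nIL-1R1-/-. The list with *Col24a1*, *Fap* and *Rxfp1* was found in 3.84% and 4.28% of members in those pools and in 0 to 1.06% elsewhere. The last 2 lists thus stood higher in both stress pools of the genotype line.

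**Figure D2:**
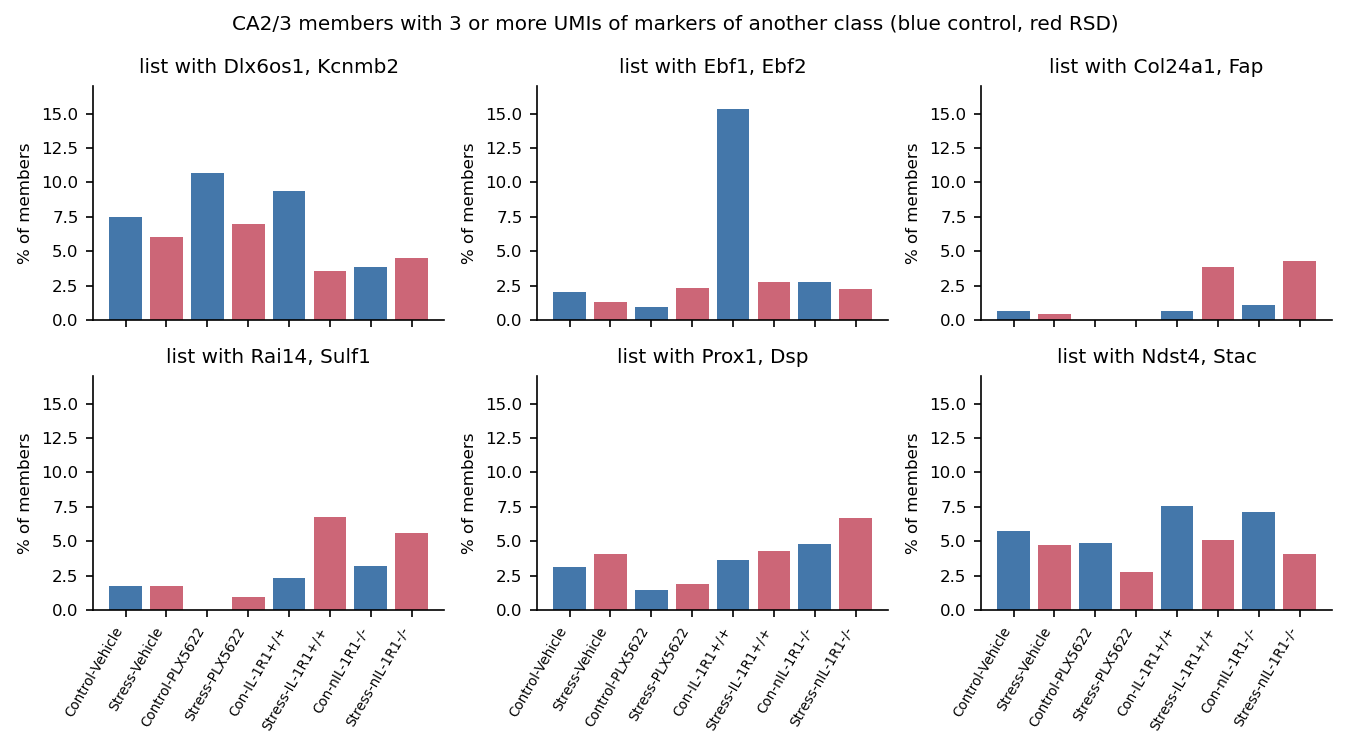
Percent of CA2/3 members (y axis) that held at least 3 UMIs and 5 per 10000 of 6 lists of genes of other groups of nuclei, by pool, control in blue and RSD in red. The *Ebf1* list peaks at 15.3% in Con-IL-1R1+/+, and the *Col24a1* and *Rai14* lists are highest in the stress pools of the genotype line.

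Genes that mark other cell types were also counted in members. At least 3 UMIs of the glial, vascular and ependymal markers together were found in 3329 members (69.6%). This cut was not scaled to depth. The share was 70.7, 46.6, 78.3 and 84.8% in the control pools and 47.3, 35.8, 73.7 and 64.4% in the stress pools. It was thus higher in the deeper pool of each pair, and leaving these members out removes unequal parts of control and stress pools. The 8 oligodendrocyte markers summed to 285 to 413 CPM, led by *Mbp*, which encodes myelin basic protein. The 7 astrocyte markers summed to 421 to 591 CPM, led by the glutamate transporter *Slc1a2*, which neurons also transcribe. The 7 microglial markers summed to 34.1, 33.3, 43.9 and 38.6 CPM in the control pools and 66.3, 48.8, 40.3 and 39.4 CPM in the stress pools. The 6 endothelial markers, led by *Flt1*, summed to 18.4, 28.5, 44.5 and 31.0 CPM in the control pools and 48.2, 146, 46.9 and 27.2 CPM in the stress pools, so Stress-PLX5622 stood highest. Inhibitory markers summed to 553 to 999.7 CPM, mostly *Adarb2* and *Erbb4*, while *Gad1*, limited by the rule, ranged from 6.02 to 20.6 CPM. The counts of called genes were repeated without the members that held 3 such UMIs, and the counts within gene lists were not.

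Genes outside the rule set the class apart most clearly where the ratio to both CA1 and DG was large in each of the 4 deepest pools. The 10 genes with the largest lowest ratio are given as a description, since the members were chosen on related genes. *Gm32647*, a long noncoding RNA, led them with a ratio of at least 7.14 and 385 to 847 CPM in members. *ENSMUSG00000120727* followed at 6.69, a ratio that rests on few UMIs (as few as 2 in CA1 and 0 in DG nuclei of a pool). *Trps1*, a GATA-type transcriptional repressor, was at least 5.13 times as high as in either class and ranged from 328 to 771 CPM. *Trhde*, the ectoenzyme that degrades thyrotropin-releasing hormone, had a ratio of 4.22 and 359 to 626 CPM. The lower-level genes were *2010320O07Rik* (4.84), the copine *Cpne9* (4.47), the glucuronyltransferase *B3gat2* (4.32), the titin gene *Ttn* (4.17), the collagen chain *Col15a1* (3.87) and the Wnt inhibitor *Nkd2* (3.87). *Ttn* varied across pools, at 51.0, 22.2, 79.1 and 35.8 CPM in the control and 128, 144, 75.0 and 66.0 CPM in the stress pools. *Trps1* stood at 585, 591, 771 and 706 CPM in the control and 328, 328, 639 and 526 CPM in the stress pools, lower after RSD in each pair without passing the test (log2 -0.62 ± 0.14 SE, adjusted p = 0.088 by edgeR's quasi-likelihood test with Benjamini-Hochberg adjustment).

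**Figure D3:**
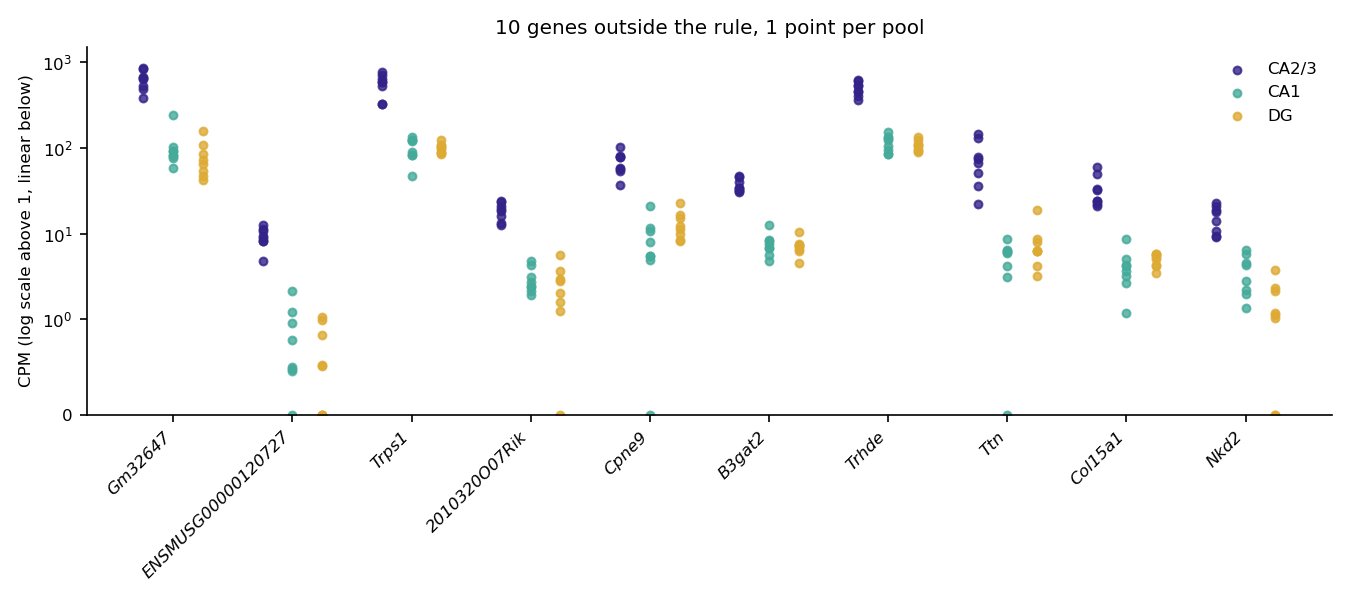
CPM (log scale above 1, linear below) of 10 genes outside the rule in CA2/3 members, CA1 nuclei and DG nuclei, 1 point per pool. The CA2/3 points of *Gm32647*, *Trps1* and *Trhde* lie above all CA1 and DG points.

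Members differed among themselves in CA2 genes. Of the 4785 members, 905 held at least 2 UMIs of the CA2 list and 2960 held none. The former were deeper (median 10083 against 4405 UMIs in Control-Vehicle), so the share was also taken after thinning each member to 500 UMIs. Then 6.94, 6.31, 7.26 and 6.70% of members in the control pools and 9.03, 5.58, 5.62 and 4.66% in the stress pools held at least 1 such UMI, with no common direction after RSD. Between members with 2 or more CA2 UMIs and members with none, the largest lowest ratios in CPM were those of *Gm43154* (6.36), *Fyb2* (5.44) and *Cotl1* (2.59), an actin-binding protein. *Egfem1* (2.32), *Strip2* (2.21), *Dock11* (2.20), *Zfp804a* (2.20), the adenylyl cyclase *Adcy1* (2.18), *Plcxd3* (2.10) and the acid-sensing channel *Asic2* (2.04) followed. These ratios describe how the members vary and were not tested.

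The gene deleted in nIL-1R1-/- mice was examined first. *Il1r1* (GRCm39, chr1:40264174-40356417, plus strand) was low in CA2/3 members, with 319 UMIs in all. It stood at 13.0, 22.2, 11.1 and 4.99 CPM in the control pools and 11.4, 13.1, 6.21 and 3.72 CPM in the stress pools. Both nIL-1R1-/- pools were the lowest of their stress or control group. The deletion contrast was log2 -0.95 ± 0.28 (SE), with an unadjusted p of 0.0038 and an adjusted p of 1.0 by edgeR's quasi-likelihood test with Benjamini-Hochberg adjustment, so it did not pass over all genes. After RSD *Il1r1* was lower in 4 of 4 pairs (log2 -0.57 ± 0.22 SE), and this did not pass either (adjusted p = 0.30). The RSD response in nIL-1R1-/- differed from that in the other 3 pairs by log2 0.13 ± 0.59 (SE). In DG nuclei *Il1r1* stood at 66.1, 76.9, 51.7 and 10.5 CPM in the control and 65.9, 52.9, 28.7 and 7.06 CPM in the stress pools, and in CA1 nuclei it ranged from 0 to 9.63 CPM. In every pool CA2/3 was thus below DG and above CA1, while over all pools the ranges of CA2/3 and CA1 overlapped. The differences between classes were not tested.

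The share of members with an *Il1r1* UMI was set beside the background of free RNA. A UMI was found in 7.81, 3.88, 7.13 and 5.11% of members in the control pools and in 4.30, 3.26, 4.12 and 2.23% in the stress pools. In the oligodendrocyte nuclei planned as background, which took in deep neurons, the shares were 9.12, 3.94, 5.30 and 8.91% and then 6.84, 1.299, 1.78 and 1.57%, above those of members in 4 pools, so against this set the members' share in those pools was not above background. In a stricter set with at least 50 marker UMIs per 10000, drawn up after the data were seen, the shares were 1.04, 3.28, 1.38 and 0% and then 0.763, 0.621, 0.273 and 0%. The nuclei of the stricter set were shallower, with median UMIs of 796 to 1707. Thinned to 500 UMIs, a UMI was found in 0.759, 1.46, 0.519 and 0.213% of members in the control pools and 1.29, 0.930, 0.137 and 0% in the stress pools. In the thinned nuclei of the stricter set the shares were 0, 1.64, 0 and 0% and then 0, 0.621, 0 and 0%. At that depth, with at most 7 members with a UMI in a pool, a difference between pools was not detectable. Of the other glutamatergic genes, *Slc17a7*, the vesicular glutamate transporter of pyramidal neurons, stood at 119, 139.5, 84.5 and 79.9 CPM in the control and 153, 114, 97.3 and 103 CPM in the stress pools. *Slc17a6*, whose promoter drives the Cre, stood at 3.31, 4.76, 12.03 and 3.00 CPM and 3.63, 0, 3.29 and 2.86 CPM, highest in Con-IL-1R1+/+ (RSD adjusted p = 0.30).

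To determine which genes RSD changed in CA2/3 members, the 8 pools were compared as 4 pairs. Of 13394 genes tested, 8 rose (0.0597% of genes tested) and 1 fell (0.00747%), or 0.0672% in all, at an adjusted p under 0.05 by edgeR's quasi-likelihood test with Benjamini-Hochberg adjustment. The homeobox factor *Cux2*, the synaptic transcription factor *Mef2c*, *Pdzd2*, *Tmem132d*, the auxiliary AMPA receptor subunit *Gsg1l*, the actin nucleator *Cobl* and the noncoding pair *Erdr1* and *Gm47283* were higher, and the serotonin 2C receptor *Htr2c* was lower. Without the pairing of pools, 1 gene passed (*Cux2*). With pair as a block, the p-values measure the spread of the change between the 4 pairs. The spread between the 3 mice of a pool cannot be seen. In all, 1706 genes (12.7%) had an unadjusted p under 0.05, and 2938 (21.9%) moved the same way in 4 of 4 pairs. The median log2 change of all genes tested was 0.0013.

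*Erdr1* was raised most. It stood at 18.8, 9.51, 6.87 and 8.82 CPM in the control pools and 92.7, 82.5, 39.8 and 23.4 CPM in the stress pools. The stress pools did not overlap the control pools (623 genes, 4.65% of those tested, had no overlap in either direction). The log2 change was 2.14 ± 0.20 (SE, adjusted p = 5.9e-05), with 2.24, 2.92, 2.49 and 1.33 in the 4 pairs. *Gm47283* stood at 48.8, 36.5, 45.8 and 68.2 CPM and 113, 122, 104 and 113 CPM, again without overlap (log2 1.08 ± 0.14 SE, adjusted p = 0.0021). The increase was present in other nuclei as well. *Erdr1* changed by log2 1.86 in CA1 (adjusted p = 9.0e-05) and 1.79 in DG nuclei (adjusted p = 0.00083). In the strict oligodendrocyte nuclei it stood at 15.7, 0, 4.14 and 10.0 CPM in the control pools. It stood at 52.1, 96.4, 26.9 and 14.2 CPM in the stress pools there, higher in each pair but with overlap between control and stress pools. These levels rest on few nuclei with a UMI, 7, 0, 4 and 4 in the control and 7, 14, 19 and 5 in the stress pools. In the nIL-1R1-/- pair the share of such nuclei was 2.37% in the control and 2.29% in the stress pool.

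*Erdr1* and *Gm47283* are copies. In the GRCm39 annotation *Erdr1* (Erdr1x, chrX:168792690-168801793, plus strand) and *Gm47283* (Erdr1y, chrY:90796007-90833677, plus strand) are noncoding genes near the ends of the sex chromosomes. Their 4 exons of equal length (85, 1069, 390 and 122 bases, the 390 lying within the 1069) were 100% identical. Reads from these exons cannot be assigned to either copy, and the levels of both are uncertain as separate genes. The first 150 bases of the shared 390-base exon are shown for that reason.

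Erdr1, chrX:168793670-168793819, plus strand: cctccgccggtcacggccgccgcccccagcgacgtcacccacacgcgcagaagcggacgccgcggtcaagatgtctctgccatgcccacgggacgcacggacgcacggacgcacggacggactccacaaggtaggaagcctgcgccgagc
Gm47283, chrY:90796859-90797008, plus strand: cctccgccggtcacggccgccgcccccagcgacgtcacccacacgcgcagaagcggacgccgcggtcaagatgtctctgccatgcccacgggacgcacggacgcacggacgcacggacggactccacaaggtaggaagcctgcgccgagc

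There were 2 transcription factors among the genes that rose. *Cux2* (chr5:121994429-122188521, minus strand), known from upper cortical layers, stood at 40.7, 50.7, 47.7 and 35.5 CPM in the control pools and 85.0, 91.9, 155 and 133 CPM in the stress pools. It rose in 4 of 4 pairs without overlap (log2 1.46 ± 0.16 SE, adjusted p = 0.00043), most in the IL-1R1+/+ and nIL-1R1-/- pairs (1.72 and 1.85, against 1.02 and 0.71). *Mef2c* (chr13:83652064-83815555, plus strand), which controls synapse number, stood at 64.0, 49.2, 61.1 and 67.8 CPM and 85.5, 84.4, 114 and 163 CPM. Its log2 change was 0.84 ± 0.14 (SE, adjusted p = 0.029), with 0.38, 0.63, 0.92 and 1.22 in the pairs. The change was 0.42 with 10 marker UMIs per 10000 (adjusted p = 0.25) and 0.66 with nuclei thinned to 500 UMIs (adjusted p = 0.19). *Mef2c* passed the same edgeR test in neither setting.

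The other called genes that rose were *Gsg1l*, *Tmem132d*, *Cobl* and *Pdzd2*. *Gsg1l* (chr7:125477577-125682068, minus strand), an auxiliary subunit of AMPA receptors, stood at 25.9, 14.3, 22.2 and 32.1 CPM in the control and 35.7, 46.9, 81.0 and 63.7 CPM in the stress pools (log2 1.17 ± 0.20 SE, adjusted p = 0.027). *Tmem132d* (chr5:127858688-128510162, minus strand), a transmembrane protein studied in anxiety, stood at 63.1, 77.7, 64.8 and 87.0 CPM and 127, 78.8, 246 and 216 CPM (log2 1.22 ± 0.20 SE, adjusted p = 0.021). It did not rise in the PLX5622 pair, where the normalized change was -0.12, against 1.94 in the IL-1R1+/+ pair. *Cobl* (chr11:12186608-12415229, minus strand), which nucleates actin in dendrites, stood at 31.3, 33.3, 38.0 and 28.6 CPM and 56.5, 28.1, 81.8 and 82.3 CPM (log2 1.04 ± 0.18 SE, adjusted p = 0.027), with -0.38 in the PLX5622 pair. *Pdzd2* (chr15:12359797-12740193, minus strand), a protein with several PDZ domains, stood at 113, 106, 101 and 105 CPM and 243, 191, 162 and 164 CPM and rose in every pair without overlap (log2 0.78 ± 0.12 SE, adjusted p = 0.017).

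*Htr2c* (chrX:145745509-145980286, plus strand) was the gene that fell. It stood at 63.6, 66.6, 109 and 59.4 CPM in the control pools and 26.9, 28.1, 47.3 and 41.2 CPM in the stress pools, with no overlap. The log2 change was -1.02 ± 0.15 (SE, adjusted p = 0.0092), and it was -1.26, -1.37, -1.16 and -0.56 in the 4 pairs. Con-IL-1R1+/+ stood apart from the other control pools for *Htr2c*, and it was also the pool with the *Ebf1* list. Without the members that held a list of another class, *Htr2c* changed by -0.67 and still passed.

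**Figure D4:**
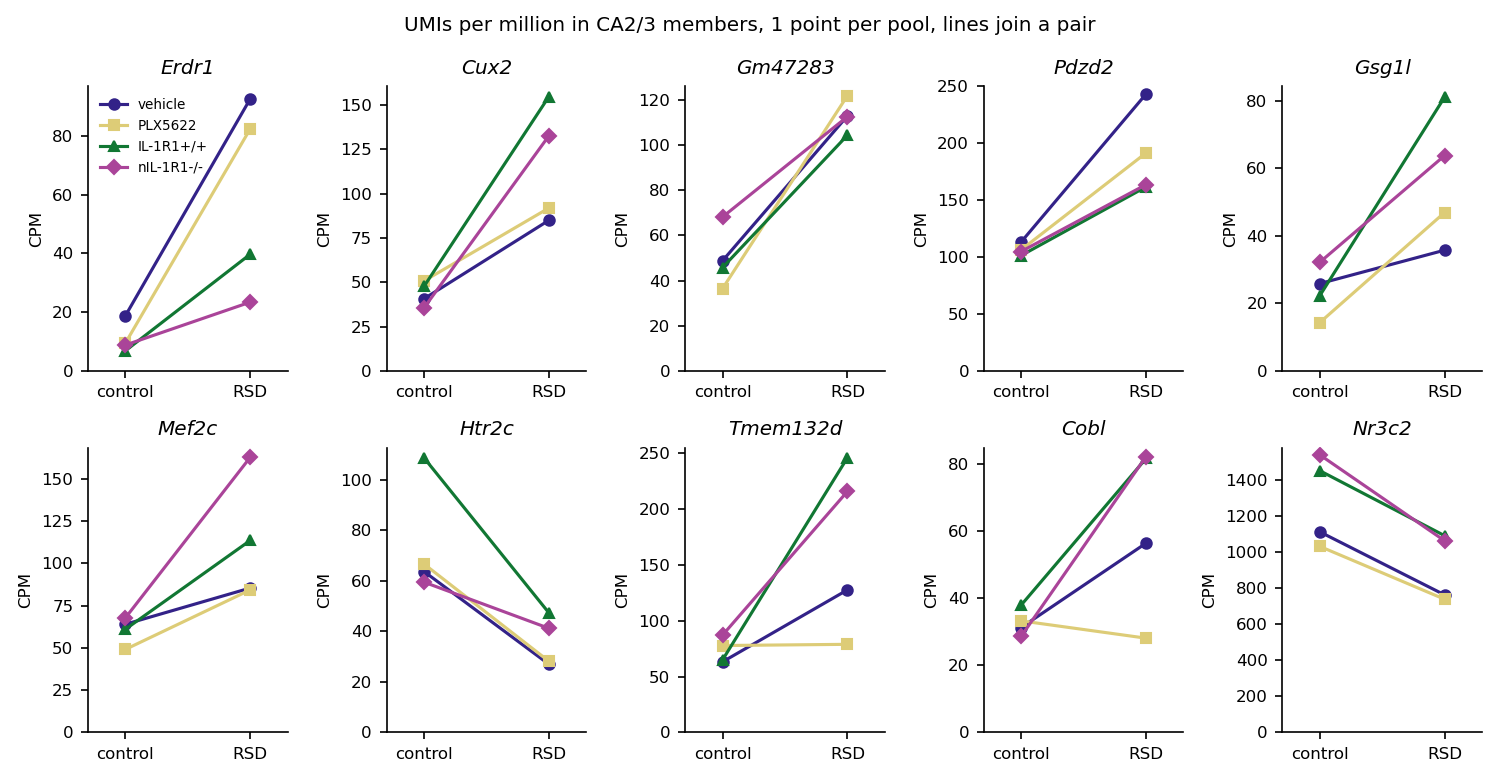
CPM in CA2/3 members for the 9 genes that passed the test of RSD and for *Nr3c2*, which did not, with 1 point per pool and a line joining control and stress pools of a pair. All 4 lines rise for *Erdr1*, *Cux2*, *Gm47283*, *Pdzd2*, *Gsg1l* and *Mef2c*, and all fall for *Htr2c* and *Nr3c2*.

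These calls depended on which members were counted. Without the members that held genes of other classes (3803 left), all 9 genes were again called, of 75 in all, with *Cux2* at 1.62 and *Tmem132d* at 0.97. With *Col11a1* taken out of the rule, 5 of the 9 passed, and *Cux2* was at 1.21 while *Tmem132d*, *Gsg1l*, *Mef2c* and *Cobl* no longer passed (adjusted p = 0.103, 0.105, 0.076 and 0.050), at log2 changes of 0.80, 0.82, 0.71 and 0.97. Without members that held 3 glial or vascular UMIs, 1456 members remained, which were shallower (median 2651.5 UMIs against 5204 in all members), and *Erdr1* (1.83) and *Gm47283* (1.11) passed. Among the 7 that did not, *Cobl* (1.04) and *Gsg1l* (0.85) kept most of their log2 change, while *Cux2* was at 0.55, *Tmem132d* at 0.28, *Mef2c* at 0.21, *Pdzd2* at 0.08 and *Htr2c* at -0.24. Leaving out the vehicle pair gave 6 genes in all, the PLX5622 pair 15, the IL-1R1+/+ pair 49 and the nIL-1R1-/- pair 4, of which 5, 8, 8 and 4 were among the 9.

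Genes just short of the threshold were named by their p as well. *Abca2*, a lipid transporter, stood at 72.5, 52.3, 43.7 and 48.8 CPM in the control and 119.7, 156, 72.1 and 67.2 CPM in the stress pools (log2 0.73, adjusted p = 0.078). *Grik3*, a kainate receptor subunit, stood at 65.4, 68.2, 65.6 and 77.2 CPM and 90.7, 97.5, 132 and 129 CPM (log2 0.69, adjusted p = 0.080). *Matk* (0.69), *Carmil3* (0.74) and *Ccnd3* (0.81) had adjusted p of 0.080, 0.081 and 0.083. On the negative side, *Chrna7*, the alpha-7 nicotinic acetylcholine receptor subunit, stood at 149.7, 159, 163 and 197 CPM and 86.5, 90.0, 139 and 114 CPM (log2 -0.66, adjusted p = 0.086). The noncoding *5330434G04Rik* was at log2 -0.65 (adjusted p = 0.086). *Gm26633* (-1.91), *Synpo2* (-1.36) and *Ebf2* (-2.72) had adjusted p of 0.054, 0.086 and 0.086, and *Ebf2* belongs to the list that marked Con-IL-1R1+/+.

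Corticosteroid receptors and their target genes are a natural group to examine after defeat stress. Of the 10, 0 passed the test, 3 had an unadjusted p under 0.05 (12.7% of all genes), and 4 were positive and 6 negative with a median log2 change of -0.13 (0.0013 over all genes). *Nr3c2*, the mineralocorticoid receptor (chr8:77625576-77971863, plus strand), was the most abundant, at 1113, 1032, 1452 and 1540.4 CPM in the control pools and 763, 739, 1092 and 1063 CPM in the stress pools. It was lower in 4 of 4 pairs, by 0.58, 0.62, 0.38 and 0.57 on the log2 scale in the order of the pairs, but did not pass (log2 -0.54 ± 0.12 SE, adjusted p = 0.088). The change was -0.49 in CA1 (adjusted p = 0.063) and -0.36 in DG nuclei (adjusted p = 0.28). *Per1*, a clock gene induced by glucocorticoids, stood at 34.5, 46.0, 36.2 and 36.3 CPM and 56.0, 63.8, 50.4 and 54.0 CPM (log2 0.54, adjusted p = 0.13), without overlap. *Fkbp5*, which restrains the glucocorticoid receptor, was at 0.18, *Sgk1* at -0.22 and *Zbtb16* at 0.12.

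Interleukin-1 family genes gave no call. Of 25 genes in the list, 13 were abundant enough to test, and 2 of these had an unadjusted p under 0.05 (12.7% of all genes). Of the 13, 4 were positive and 9 negative (median -0.14, 0.0013 over all genes). *Il1rap*, the accessory protein of IL-1R1, stood at 161, 160.2, 173 and 220.5 CPM and 117, 129, 154 and 186 CPM (log2 -0.33, adjusted p = 0.26). *Il1rapl1*, a synaptic relative of the receptor, was more abundant, at 679 to 1060.1 CPM (log2 -0.14). *Il1b* and *Il1rl1* had 0 UMIs in members of all 8 pools.

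Activity-regulated genes gave no call. Of the 12 tested, 9 were positive and 3 negative, with a median of 0.39 (0.0013 over all genes), 5 with an unadjusted p under 0.05 (12.7% of all genes) and 0 called. *Arc*, which controls AMPA receptor traffic, was at 0.54 (adjusted p = 0.25), *Egr3* at 0.70 (0.19), *Fos* at 0.49 and *Nr4a1* at 0.29. *Homer1*, the most abundant, stood at 144, 144, 205 and 179.5 CPM and 116, 103, 208 and 245 CPM (log2 -0.05), and the neurotrophin *Bdnf* was at -0.32. The list summed to 349.6, 303, 480.0 and 409 CPM in the control and 286, 281, 508 and 537 CPM in the stress pools, lower after RSD in the vehicle and PLX5622 pairs and higher in the other pairs. A list of 8 late activity genes, added after the data were seen, had 4 positive and 4 negative genes (median 0.0022), 0 with an unadjusted p under 0.05. Chaperone and stress-response genes were positive in 9 of 9 tested, with a median of 0.30, 2 with an unadjusted p under 0.05 and 0 called. *Hsp90ab1* stood at 66.4, 76.1, 46.1 and 38.4 CPM and 103, 152, 56.0 and 52.3 CPM (log2 0.50, adjusted p = 0.13), and *Hspa5*, the chaperone of the endoplasmic reticulum, was at 0.62.

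The listed ionotropic glutamate receptor and potassium channel genes gave no call for RSD. Of 19 ionotropic glutamate receptor genes, 0 were called, 6 had an unadjusted p under 0.05, a larger share than the 12.7% of all genes, and 7 were positive and 12 negative (median -0.13). *Gria1*, an AMPA receptor subunit, stood at 4297, 4151, 3800.3 and 4262 CPM and 4079, 4197, 4012 and 3662 CPM (log2 -0.10 ± 0.12 SE). *Grin2a*, an NMDA receptor subunit, was at 0.02 ± 0.12 (SE) and *Grik4*, a kainate receptor subunit of CA3 neurons, at 0.05 ± 0.13 (SE). Of 25 potassium and related channel genes, 0 were called and 11 had an unadjusted p under 0.05, again a larger share, and 13 were positive and 12 negative (median 0.0065). The list summed to 18718, 19044, 19550.1 and 20519 CPM in the control and 14593, 13374.5, 19256 and 19881 CPM in the stress pools, lower after RSD in each pair and most in the vehicle and PLX5622 pairs. *Kcnq5*, an M-current channel, stood at 2836, 2851, 2581 and 3046 CPM and 1567, 1545, 2859.8 and 2757 CPM (log2 -0.47, adjusted p = 0.26). Its control and stress values were far apart in the vehicle and PLX5622 pairs and close in the other pairs. *Kcnip4*, which modulates A-type channels, stood at 5965, 6374, 6448 and 6738 CPM and 4092, 3933, 5852 and 6291 CPM (log2 -0.41, adjusted p = 0.24).

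Adhesion and guidance genes of the mossy fibre to CA3 contact gave 0 calls of 16, with 5 unadjusted p under 0.05 (12.7% of all genes), 4 positive and 12 negative (median -0.14). *Cdh9*, a cadherin needed for mossy fibre synapses on CA3 neurons, stood at 200.4, 214, 249.8 and 315 CPM and 116, 188, 199.7 and 185 CPM (log2 -0.58, adjusted p = 0.089), with each control pool above each stress pool. *Cdh10* was at -0.49 (adjusted p = 0.15) and *Epha4* at -0.39 (adjusted p = 0.19). *Lrrtm4*, a postsynaptic adhesion protein, stood at 1662, 2223, 2081 and 2167 CPM and 1709.7, 1665, 2026 and 2158 CPM (log2 -0.15).

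Ras, insulin and Wnt signalling genes were listed because the study treats these pathways in CA2/3 neurons. Of 32 Ras pathway genes, 0 were called, 4 had an unadjusted p under 0.05, and 11 were positive and 21 negative (median -0.08). *Rasgrf1*, a Ras exchange factor, was at -0.08. Of 27 insulin and IGF genes tested, 0 were called, 6 had an unadjusted p under 0.05, and 14 were positive and 13 negative (median 0.017). *Igf1r*, the IGF-1 receptor, was at 0.02. Of 30 Wnt genes tested, 0 were called, 6 had an unadjusted p under 0.05, and 13 were positive and 17 negative (median -0.083). *Tcf4* was the most abundant of them (log2 -0.27, adjusted p = 0.37), and *Dvl1* was at 0.49. In these 3 lists the share of unadjusted p under 0.05 lay near or above the 12.7% of all genes.

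The lists of genes of other groups of nuclei were set beside these results. The *Col24a1*, *Rai14* and *Ebf1* lists were drawn up after these same members had been examined. Their counts and directions are therefore a description and not a test. Over all genes tested, 12.7% had an unadjusted p under 0.05 and the median log2 change was 0.0013. The 8 genes of the *Col24a1* list were all positive (median 1.51, unadjusted p under 0.05 in 8, called in 0), and their sum was 34.2, 25.4, 33.3 and 37.0 CPM in the control and 31.6, 22.5, 104 and 119 CPM in the stress pools. The increase lay in the IL-1R1+/+ and nIL-1R1-/- pairs, in which *Cux2* and *Tmem132d* also rose most. The 6 genes of the *Rai14* list were positive (median 0.69), with sums of 66.5, 53.9, 60.9 and 71.5 CPM and then 73.6, 46.9, 150 and 135 CPM. The 7 genes of the *Ebf1* list were negative (median -0.78), with sums of 78.3, 79.3, 417 and 77.5 CPM and then 87.6, 141, 91.8 and 82.0 CPM. The 5 endothelial genes tested were positive (median 0.53, 1 unadjusted p under 0.05, 0 called) and the 5 thalamic and midbrain genes tested were negative (median -0.78, 3 unadjusted p under 0.05, 0 called). The latter list, led by *Ebf1*, summed to 39.9, 47.6, 171 and 26.6 CPM in the control and 44.6, 105, 29.9 and 32.6 CPM in the stress pools, so its sum was lower after RSD only in the IL-1R1+/+ pair. Abundant nuclear RNAs did not move together, with 7 of 10 positive and *Malat1* at 0.07 ± 0.13 (SE).

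The response to RSD was then compared with that of CA1 nuclei of the same pools. Of 13324 genes, 9 had a higher and 9 a lower log2 change in CA2/3 (0.135% of genes tested, and 0.0675% in each direction, by edgeR's quasi-likelihood test with Benjamini-Hochberg adjustment), and 685 (5.14%) had an unadjusted p under 0.05. *Tmem132d* had the smallest p and differed by 1.22 ± 0.13 (SE, adjusted p = 5.9e-07). In CA1 nuclei it stood at 301, 214, 278 and 317 CPM in the control and 295, 221, 359.6 and 347 CPM in the stress pools, above the level of CA2/3 in each pool. *Mapk4*, an atypical MAP kinase, differed by 0.72 ± 0.12 (SE, adjusted p = 0.0017), with 61.5, 53.9, 54.1 and 69.5 CPM and 95.8, 61.9, 93.3 and 113 CPM in CA2/3. *Cux2* also differed, by 0.97 (adjusted p = 0.031), and so did *Gfra1* (0.89) and *Kcnh7* (0.54). The *Col24a1* and *Rai14* lists were highest in the stress pools of the genotype line, as was *Tmem132d*. The log2 change of *Mapk4* was 0.60, 0.06, 0.81 and 0.67 in the vehicle, PLX5622, IL-1R1+/+ and nIL-1R1-/- pairs. The part of these lists in the differences was not tested. Without nuclei that held 3 glial or vascular UMIs, 0 of the 18 genes were called and *Mapk4* turned to -0.28, and with nuclei thinned to 500 UMIs 1 of the 18, *Tmem132d*, was called.

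Values are given for 2 of the 9 genes on the lower side. *Pcp4* was steady in CA2/3, with 19.0, 15.9, 25.6 and 20.9 CPM and 16.6, 18.8, 18.1 and 19.7 CPM, while in CA1 it stood at 6.71, 10.6, 7.53 and 8.83 CPM in the control and 24.1, 8.50, 21.2 and 17.6 CPM in the stress pools (difference -1.53 ± 0.24 SE, adjusted p = 0.00086). *Dlc1*, a GTPase-activating protein, stood at 136 to 198 CPM in CA2/3 and was higher in the stress pool of 3 pairs in CA1, with 141, 186, 148 and 165 CPM in the control and 136, 225, 310.2 and 269.5 CPM in the stress pools (difference -0.65 ± 0.11 SE, adjusted p = 0.0036).

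Against DG nuclei, in a fit of the same form without the pairing, 11 of 13901 genes (0.0791%) had a higher log2 change in CA2/3. A lower change was found for 2 (0.0144%), which made 0.0935% in all, and 950 (6.83%) had an unadjusted p under 0.05. *Mef2c* differed by 0.95 ± 0.11 (SE, adjusted p = 1.2e-05). In DG nuclei it stood at 194, 187, 246 and 259 CPM in the control and 173, 147, 235 and 258 CPM in the stress pools, with overlap. *Cux2* differed by 1.16 ± 0.15 (SE, adjusted p = 3.5e-05), with 50.6, 60.2, 57.0 and 41.4 CPM and 68.6, 47.2, 63.1 and 73.5 CPM in DG. *Cobl* differed by 1.10 ± 0.15 (SE, adjusted p = 0.0002) and ranged from 30.2 to 47.4 CPM in DG. *Tmem132d* (1.15), *Gsg1l* (0.93) and *Grik3* (0.67) were also among the 11. Without nuclei that held 3 glial or vascular UMIs *Cux2* turned to -0.059, and 0 of the 13 genes were called there or with nuclei thinned to 500 UMIs. *Olfml2b*, an extracellular olfactomedin-domain protein (-0.77 ± 0.13 SE, adjusted p = 0.0039), and *Trpc4*, a cation channel (-0.57 ± 0.11 SE, adjusted p = 0.028), were the 2 lower genes.

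*Pdzd2* and *Htr2c* passed the test of RSD in each of the 3 classes, as did *Erdr1* and *Gm47283*. *Pdzd2* changed by log2 0.78 in CA2/3, 0.78 in CA1 (adjusted p = 0.020) and 0.66 in DG nuclei (adjusted p = 0.0062). *Htr2c* changed by -1.02, -0.998 (adjusted p = 0.020) and -1.36 (adjusted p = 0.005). The difference between CA2/3 and CA1 was -0.02 ± 0.13 (SE) for *Pdzd2* and 0.06 ± 0.18 (SE) for *Htr2c*, and between CA2/3 and DG it was 0.10 ± 0.10 and 0.27 ± 0.24 (SE). None of these differences passed, which does not show that the classes responded alike. The classes came from the same pools, so they are not independent tests of RSD.

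**Figure D5:**
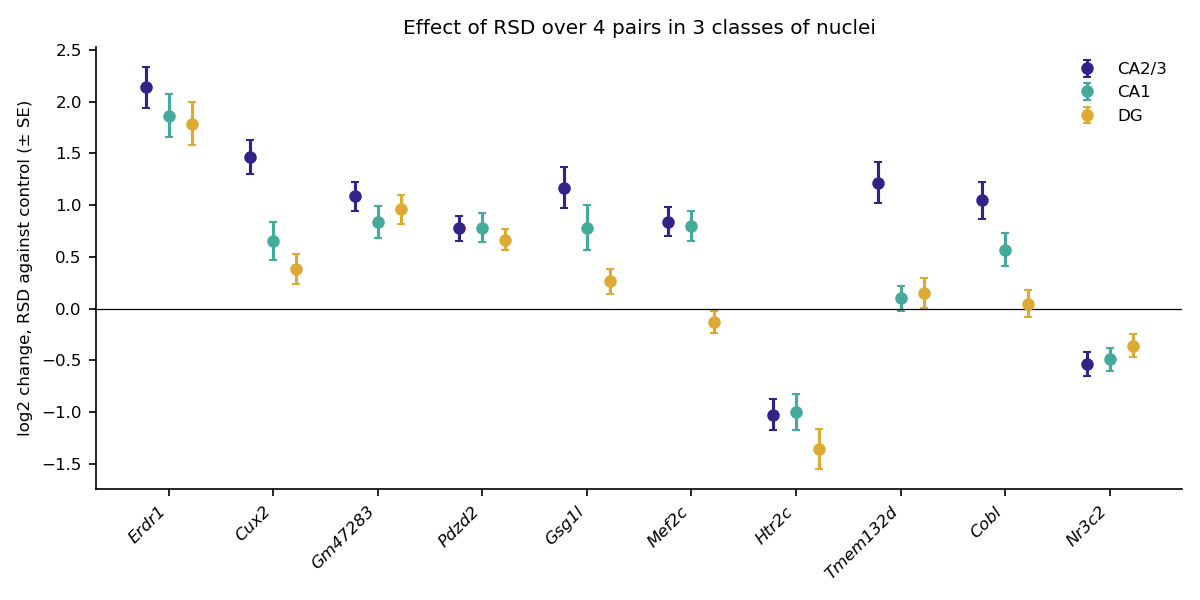
Log2 change between stress and control pools over 4 pairs (± SE) in CA2/3 members, CA1 nuclei and DG nuclei for the 9 called genes and *Nr3c2*. *Erdr1*, *Gm47283*, *Pdzd2* and *Htr2c* lie close together in the 3 classes, whereas *Tmem132d* is at 1.22 in CA2/3 and near 0 in the others.

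To determine whether neuronal deletion of *Il1r1* altered CA2/3 members, nIL-1R1-/- was compared with IL-1R1+/+ with RSD as a term. Of 13394 genes, 0 rose and 1 fell (0.00747% of genes tested), 302 (2.25%) had an unadjusted p under 0.05, and DESeq2 called 1. *Bnc2*, a zinc finger factor (chr4:84193332-84593512, minus strand), stood at 21.2 CPM in Con-IL-1R1+/+ and 8.03 CPM in Stress-IL-1R1+/+, and at 1.75 and 1.14 CPM in the nIL-1R1-/- pools (log2 -3.31 ± 0.36 SE, adjusted p = 0.00069). The vehicle and PLX5622 pools, which are also IL-1R1+/+, stood at 2.52, 1.59, 2.59 and 1.88 CPM. *Bnc2* was too low to be tested without the members that held genes of other classes, without those that held 3 glial or vascular UMIs, with *Col11a1* out of the rule, with 10 marker UMIs per 10000 and with thinning. Of these settings, 1 gave a call, of *Reln*, without members with glial UMIs. *Ebf2* (-3.54, adjusted p = 0.091), *Glra1* (-3.30), *Galnt10* (-1.06) and *Syt2* (-1.65) came next and did not pass. All 7 genes of the *Ebf1* list were negative (median -1.87), a description only, since the list was drawn up after the members had been examined. Con-IL-1R1+/+ held most of the members with that list. On the positive side, *Apool*, a protein of mitochondrial cristae, stood at 6.63, 11.1, 11.6 and 29.3 CPM in the control and 4.14, 7.50, 10.2 and 11.7 CPM in the stress pools (log2 0.93), and *Tfpi* (2.06), *Gm11867* (1.22) and *Sertm1* (1.02) followed, with adjusted p of 0.99 to 1.0.

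The response to RSD in nIL-1R1-/- was compared with that in the other 3 pairs. Of 14652 genes, 0 were called (512, or 3.49%, had an unadjusted p under 0.05, and DESeq2 called 0). *Olfm3*, a secreted olfactomedin of the synapse, came closest, at 37.6, 31.7, 86.7 and 39.8 CPM in the control and 30.0, 35.6, 73.7 and 107 CPM in the stress pools (difference in log2 change 1.62 ± 0.31 SE, adjusted p = 0.18). *Cntn6* (1.47), *Cntn4* (1.37), *Plcb4* (1.61) and *Klhl1* (1.76) followed on the positive side. *Flt1* (-2.50), *Cspg4* (-3.61), *Chrd* (-1.05), *Srrt* (-0.96) and *Ajm1* (-1.20) did on the negative side. *Flt1* and *Cspg4* are markers of endothelial cells and of oligodendrocyte precursors. For *Erdr1*, whose rise was smallest in the nIL-1R1-/- pair, the difference was -1.09 ± 0.38 (SE, adjusted p = 1.0). The contrast rests on 1 pair against 3, and a p that misses the threshold does not show that the responses were alike.

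PLX5622 was compared with vehicle in the same way. Of 13394 genes, 0 were called by edgeR's quasi-likelihood test with Benjamini-Hochberg adjustment, 715 (5.34%) had an unadjusted p under 0.05, and DESeq2 called 5. The PLX5622 pools held 206 and 215 members. *Neat1*, a nuclear noncoding RNA, stood at 36.5 and 75.0 CPM with PLX5622 and at 11.8 and 8.81 CPM with vehicle (log2 2.24 ± 0.34 SE, adjusted p = 0.057). *Il31ra*, a cytokine receptor, stood at 60.3 and 52.5 CPM against 11.9 and 21.8 CPM (log2 1.87, adjusted p = 0.067). *Alpk1*, a sensor kinase of innate immunity, stood at 99.9 and 128 CPM against 32.6 and 62.2 CPM (log2 1.35, adjusted p = 0.067). *Banf2* (1.65) was also high in Control-PLX5622. There it stood at 406 CPM in CA2/3, 457 in CA1 and 586 in DG nuclei, so it was high in each class of that pool. Markers of other cells moved with PLX5622. All 5 endothelial genes tested were positive (median 1.45, unadjusted p under 0.05 in 4), as were all 5 astrocyte genes (median 1.35, 3) and all 7 inhibitory genes (median 0.81, 2), against a median of -0.031 over all genes. Their part in the result was not tested. *Sh2d3c*, *Gid4*, *Rhof*, *Trib2* and *Mmut* came first on the lower side, and *Sh2d3c*, *Trib2* and *Mmut* had 0 UMIs in both PLX5622 pools, where 3 UMIs are worth 4.76 and 5.63 CPM.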

How the data were processed

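Single-nuclei libraries were prepared by split-pool barcoding (Parse) from 8 pools, and 4 of 8 sublibraries are covered by these files. The authors aligned reads to mm39 with the Parse pipeline and deposited UMI counts per gene and nucleus, unfiltered. Seurat 4.1.1 is named in the submitters' processing notes. No column was left unmapped (0). The labels assign pools to groups but not sublibraries, so values were summed over sublibraries. Members and gene lists were chosen with earlier results of these data known, and the lists of other classes after the members had been examined.

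UMI counts were summed per pool over members and tested with edgeR 4.0.16 (R 4.3.3), with filterByExpr, TMM factors (0.941 to 1.08), glmQLFit, glmQLFTest and Benjamini-Hochberg adjustment. RSD was fitted with pair as a block. Diet and genotype were contrasts between pairs, and the other 2 fits compared the RSD effect between classes and between genotypes. The fits between classes had pool as a block, class, and class by stress, with no term for pair by class. DESeq2 1.42.0 was an alternative. The authors tested nuclei as replicates, which was not done here. Scripts were tested on simulated data. Doublets were not called, and members with markers of other classes were left out in an alternative. Pairs share a diet or genotype and not animals. The deviations of same-numbered pools correlated by 0.152, 0.0723, 0.132 and 0.153.

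Named were *Il1r1*, the rule markers, *Slc17a7* and *Slc17a6*, genes called for RSD with the 5 smallest p in each direction beyond them, the 5 smallest p in each direction for genotype, diet and interaction (rule markers left out), the 3 smallest for each class difference, and from each list the genes called and the 2 to 4 with most UMIs. *Per1*, *Arc*, *Egr3*, *Fos*, *Hspa5*, *Cdh9*, *Cdh10*, *Epha4*, *Dvl1* and further genes named among the lists and class differences were chosen after their values were seen. Some genes that these rules take in are not reported here. Shares carry exact binomial intervals (scipy 1.17.1).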

Additional observations from a re-analysis of the deposited data

Results flagged for a closer look

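Single pools stood far from the rest of their stress or control group for 13 of 132 sets of 4 values examined (Dixon's test at 95%), where chance gives about 1 in 20. Many of these genes were named for their p in contrasts of few pools, in which 1 pool weighs heavily, so that rate is not a fair comparison for them. Con-IL-1R1+/+, which also held 118 of the 208 members with the *Ebf1* list, was high for *Htr2c* (109 CPM, other control pools 59.4 to 66.6), *Ebf2* (14.7, others 0 to 1.72), *Bnc2* (21.2, others 1.59 to 2.52), *Syt2* (25.5, others 4.64 to 5.41), *Olfm3* (86.7, others 31.7 to 39.8) and *Klhl1* (30.5, others 9.51 to 11.3). Control-PLX5622 was high for *Il31ra* (60.3 CPM, others 9.84 to 11.9), *Alpk1* (99.9, others 22.6 to 32.6) and *Banf2* (406, others 56.1 to 89.0), and it had 0 UMIs of *Sh2d3c* (others 7.91 to 8.62 CPM). Con-nIL-1R1-/- was high for *Gm11867* (13.7 CPM, others 3.17 to 4.77). Stress-PLX5622, the shallowest pool, was high for *Neat1* (75.0 CPM, others 8.81 to 12.8) and in the median mitochondrial share of its members (0.174%, others 0.103 to 0.115%). The part of these pools in the results was not tested beyond leaving each pair out.

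The response to RSD differed between CA2/3 and another class by edgeR's quasi-likelihood test with Benjamini-Hochberg adjustment, with pool as the block and the pairing not used. Against CA1 the differences in log2 change were 1.22 for *Tmem132d*, 0.72 for *Mapk4*, -1.53 for *Pcp4* and -0.65 for *Dlc1*. Against DG they were 0.95 for *Mef2c*, 1.16 for *Cux2*, 1.10 for *Cobl*, -0.77 for *Olfml2b* and -0.57 for *Trpc4*. Without nuclei that held 3 glial or vascular UMIs 0 of the 18 and 0 of the 13 called genes were called, with *Mapk4* at -0.28 and *Cux2* at -0.059.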

How the results depend on the processing

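The 9 genes called for RSD became 171 (91 higher, 80 lower) with no filter on low counts, 62 with DESeq2 (8 of the 9, *Erdr1* having no adjusted p), 39 with nuclei thinned to 500 UMIs (8 of the 9), 69 with 10 marker UMIs per 10000 (8), 78 in the genotype line alone (9) and 4 to 49 with a pair left out. After seeing the data, 2 alternatives were added, which gave 75 without members of other classes (9 of the 9) and 6 without *Col11a1* in the rule (5). RLE factors gave 9. Without members with glial UMIs 11 were called (2 of the 9).

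The pairing of pools rests on a shared diet or genotype. With no replicate block, 1 gene (*Cux2*) was called for RSD in place of 9. Only 3 of 4 pairs deviated together by a correlation over 0.1, so the block follows the design and the pairing was not shown by the data.

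For the genotype, 1 call became 38 with no filter, 1 to 2 with a pair left out, 1 without members with glial UMIs (not *Bnc2*), and 0 when thinned, with 10 marker UMIs per 10000, without *Col11a1* in the rule or without members of other classes. For PLX5622, 0 became 19 with no filter, 5 with DESeq2, 1 when thinned, 6 with 10 per 10000, 2 without members of other classes and 0 to 11 with a pair left out. For the interaction, 0 became 1 with no filter, 2 without members with glial UMIs and 0 to 15 with a pair left out. Against CA1, 18 became 52 with no filter, 8 with DESeq2, 2 when thinned, 2 with 10 per 10000, 3 without glial UMIs and 7 to 24 with a pair left out. Against DG, 13 became 47, 9, 0, 8, 1 and 4 to 24. Reversed were *Mapk4* against CA1 (-0.28) and *Cux2* against DG (-0.059) without members with glial UMIs. Of 634 single-gene alternatives, 498 kept direction and side of the threshold, 69 passed newly, 65 no longer passed and 2 reversed. The causes were not tested.

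The mean share difference, -1.81 points, was -0.171 thinned to 1000 UMIs, -1.06 with 10 per 10000, -1.76 among *Syt1* nuclei and -1.87 with a 5% mitochondrial limit. The genotype could not be fitted without its own pairs, nor PLX5622 without the vehicle or PLX5622 pair, nor the interaction without the nIL-1R1-/- pair. Depth limits the PLX5622 pools most.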
